A study of Drosophila melanogaster with 9 samples.

Results

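Transcripts of 10 proton pump genes were followed in fat body of Drosophila melanogaster. They are the listed genes for the cytosolic (V1) sector of the vacuolar H+-ATPase (V-ATPase), matched by FlyBase identifier, and all 10 were found among the 10242 genes of the deposited tables. The members were Vha68-1, Vha68-2 and Vha68-3 for subunit A, Vha55 for B, Vha36-1 and Vha36-3 for D, Vha26 for E, Vha14-1 for F, Vha13 for G and VhaSFD for H. Of the other V1 genes, Vha44 (C), Vha36-2 (D) and Vha14-2 (F) were not matched by name and were not analysed here. Of the 10242 identifiers, 53 had no entry in the annotation used, and whether any of them stands for these genes was not tested.

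The V-ATPase is a rotary machine that pumps protons into lysosomes, endosomes and other compartments, and across the plasma membrane of some epithelia. Its V1 sector splits ATP on the cytosolic face. A ring of alternating A and B subunits turns a central shaft that contains D and F, stalks of E and G hold the ring still, and H and C join V1 to the membrane sector, V0, through which protons pass. V1 can detach from V0, which stops the pump. MiT/TFE transcription factors, whose fly member is Mitf, are known to act on V-ATPase genes, and the fat body is a storage organ that breaks down its own contents through lysosomes at metamorphosis.

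Poly(A) RNA was sequenced from 9 libraries, 3 in each of 3 groups, each made from fat bodies of 5 animals. Eggs developed for 21 h at 21 °C before rearing went on at 25 °C. All animals carried Lsp2-GAL4, a driver active in fat body late in larval life. The larvae, titled e3IL and labelled as of the third instar, carried UAS-LacZ, a control transgene for a bacterial enzyme (UAS-LacZ/+; Lsp2-GAL4/+). The 6 libraries of white prepupae, whose puparium has just formed and is still pale, are titled mitf for 3 and LacZ for 3. The other labels go against these titles. The genotype field reads UAS-Mitf/+; Lsp2-GAL4/+ for all 6, and the column headers inside the tables name LacZ for the libraries titled mitf and mitf for those titled LacZ. The groups are therefore called by title only. Mitf itself stood at 378.2, 384.9 and 410.7 in the larvae, at 346.9, 370.4 and 407.1 in the prepupae titled mitf, and rose to 35204, 68535 and 45647 in those titled LacZ. The prepupae titled LacZ were thus the group with high Mitf transcripts. A table per gene cannot separate transcripts of the transgene from those of the endogenous gene.

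Values are a normalised signal per gene, made by the authors from read counts, and are not themselves counts. Library sums were 22604438 to 27178650 in the larvae, 23607147 to 24354238 in prepupae titled mitf and 17195757 to 18187221 in prepupae titled LacZ. Levels are given as mean ± SD over 3 libraries, and differences on the log2(value + 1) scale ± SE from limma, with p-values adjusted by the Benjamini-Hochberg method over 10139 tested genes and a gene called under 0.05. Nothing in the labels ties the replicates to separate crosses, so p-values reflect only how these libraries spread, which may be technical. Of 10 fat body markers, all were measured, and none was listed at 0 throughout any group. Their summed level ran from 7913690 to 12919500 in the larvae, from 10258000 to 10563000 in prepupae titled mitf and from 1131780 to 1568390 in prepupae titled LacZ. Different genes carried the larval sum and the one with the title mitf. Lsp1beta, the highest in larvae with a mean of 3722040, averaged 258309 with the title mitf. Fbp1, the highest there at 6366620, averaged 7130 in larvae. FASN1 averaged 534913 in larvae but 606 with the title mitf. Of the 10 markers, 3 were called higher with that title than in larvae, 6 lower and 1 neither way.

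V1 transcripts took a small share of the RNA in larvae and prepupae titled mitf and a far larger one in prepupae titled LacZ. Together the 10 genes made up 0.0533% ± 0.00724 (SD, n = 3) of the summed values in larvae, 0.0644% ± 0.00257 with the title mitf and 1.78% ± 0.213 with the title LacZ. Between the prepupa groups, each of the 10 genes was called higher in prepupae titled LacZ and 0 were lower, and in each the 3 libraries of one group lay clear of the other. Among all tested genes 41.1% were called higher and 31.6% lower, while 42.1% lay higher and 34.0% lower without overlap. The median log2 difference was 4.39 over the 10 genes, or 4.32 without Vha68-3, against 0.22 over all tested genes. Against the larvae, prepupae titled LacZ were again higher for 10 of 10 genes, none of them overlapping, where 46.3% of all tested genes were called higher, 32.2% lower, and 47.0% lay higher without overlap. Their median there was 4.72, or 4.71 without Vha68-3, against 0.50 over all tested genes. From larvae to prepupae titled mitf, 4 genes rose (Vha68-1, Vha55, Vha36-1 and Vha14-1), 1 fell (Vha36-3) and 5 were not called, where 34.8% of all tested genes rose and 31.7% fell. Without overlap lay 5 of the 10 higher and 1 lower, against 37.2% and 33.9% of all tested genes. The 3 comparisons share their groups, so these counts do not bear on each other independently. All 10 genes passed the filter on low values, Vha68-3 only through the prepupae titled LacZ. Scaling by library totals moved the median of all tested genes by 0.41 between the prepupa groups, with 4950 genes higher and 2335 lower in place of 4166 and 3200, and by 0.45 between prepupae titled LacZ and larvae, with 5512 and 2469 in place of 4699 and 3260. Trimmed mean scaling moved these medians the other way, by -0.20 and -0.25. It gave 3776 genes higher and 3633 lower between the prepupa groups, and 4284 and 3663 against the larvae. In a bulk sample, fewer cells of a type and less RNA per cell cannot be told apart.

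**Figure D1:**
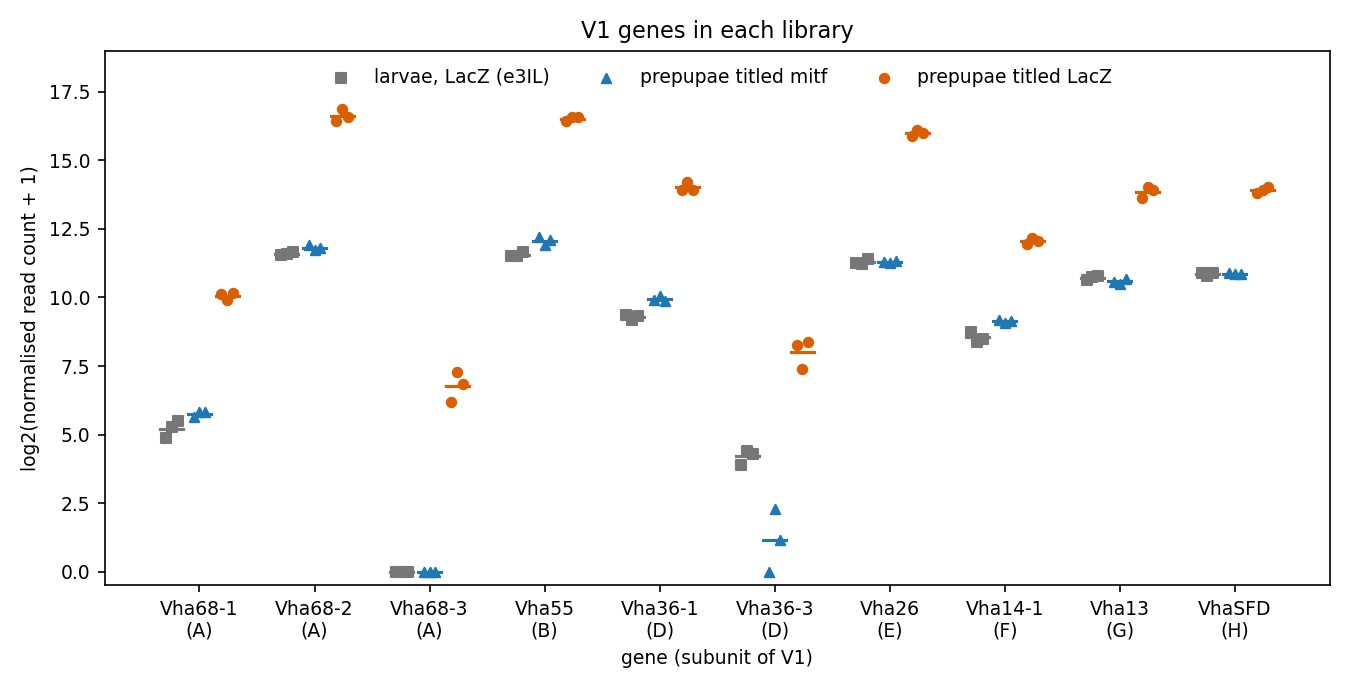
Each point is 1 library, with its log2(normalised read count + 1) on the vertical axis, for the 10 V1 genes on the horizontal axis with their subunit in brackets, and short lines are group means (n = 3). Prepupae titled LacZ lay above both other groups for every gene drawn, and Vha68-3 was listed at 0 in both other groups.

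Subunit A carries the catalytic site, and in this tissue nearly all of its transcripts came from Vha68-2 (FBgn0263598, chromosome 2L, 12974322 to 12978607, plus strand, BDGP6). Vha68-2 stood at 2990, 3049 and 3246 in the larvae, at 3849, 3386 and 3619 in prepupae titled mitf, and at 88148, 119760 and 98751 in prepupae titled LacZ. The prepupae titled LacZ stood far above both other groups, which lay close to each other, although the prepupae titled mitf were all above the larvae. The mean of prepupae titled LacZ was 28.3 times that of prepupae titled mitf (difference of 4.81 ± 0.12 in log2, adjusted p = 7.92e-10) and 33.0 times that of the larvae (5.03 ± 0.12, adjusted p = 4.91e-10). Prepupae titled mitf and larvae differed by 0.22 ± 0.12 (adjusted p = 0.134), which was not called, but was called when only those groups were fitted (adjusted p = 0.0290) and without replicate 2 titled LacZ (adjusted p = 0.0394).

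Vha68-1 (FBgn0265262, chromosome 2L, 13000770 to 13004107, minus strand) encodes a second form of subunit A with the same coding length as Vha68-2, 1842 bases. Larvae had values of 28.3, 37.6 and 44.1, prepupae titled mitf of 49.0, 54.9 and 55.2, and prepupae titled LacZ of 1105, 970 and 1157. The order of the groups was the same as for Vha68-2 and none of the groups overlapped. Prepupae titled LacZ averaged 20.3 times the prepupae titled mitf (log2 difference 4.32 ± 0.18, adjusted p = 1.68e-08). The rise from larvae to prepupae titled mitf, 0.54 ± 0.18 (adjusted p = 0.0218), was not called without larval replicate 1 (0.37, adjusted p = 0.0671), without replicate 2 or 3 titled mitf (adjusted p = 0.0568 and 0.0586) or when only those groups were fitted (adjusted p = 0.0607).

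Per kb of the longest annotated transcript, Vha68-1 gave 1.13% ± 0.201 of the subunit A level in the larvae, 1.41% ± 0.170 in prepupae titled mitf and 1.03% ± 0.224 in prepupae titled LacZ. Vha68-2 gave 98.9% ± 0.201, 98.6% ± 0.170 and 98.9% ± 0.204. The minor form thus stayed near a hundredth of the total while the total changed. The log2 ratio of Vha68-1 to Vha68-2 was lower in prepupae titled LacZ than in those titled mitf by 0.49 on the log2 scale, a difference of -0.49 with no overlap, for which an exact two-sided permutation test over 3 against 3 libraries gave its smallest possible p of 0.10 (adjusted p = 0.12 over 12 paralogue comparisons). Without replicate 2 titled LacZ the difference was -0.30. How reads common to these paralogues were divided by the authors' counting was not tested, so the level of Vha68-1, the scarcer, is the less certain.

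Vha68-3 (FBgn0032464, chromosome 2L, 12978786 to 12981293, plus strand), the remaining subunit A gene, was listed at 0 in all 6 libraries of larvae and of prepupae titled mitf. It stood at 72.6, 153.7 and 114.3 in prepupae titled LacZ. The gene passed the filter on low values through these 3 libraries alone, so its call had to follow, and no fold or p is given against a group at 0. Vha68-3 starts 178 bases past the annotated end of Vha68-2 on the same strand. Its level amounted to 0.0824%, 0.128% and 0.116% of that of Vha68-2 in the 3 libraries titled LacZ, and whether transcripts running on from Vha68-2 contributed was not tested.

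Subunit B, the partner of A in the ring, has Vha55 as its gene (FBgn0005671, chromosome 3R, 12623762 to 12627829, minus strand). Vha55 stood at 2931, 2927 and 3240 in the larvae, at 4703, 3877 and 4372 in prepupae titled mitf, and at 87870, 98151 and 97625 in prepupae titled LacZ. No groups overlapped, and the step from larvae to prepupae titled mitf was small beside the step to prepupae titled LacZ. The latter averaged 21.9 times the prepupae titled mitf (log2 difference 4.46 ± 0.11, adjusted p = 5.45e-10). From larvae to prepupae titled mitf Vha55 rose 1.42-fold (0.51 ± 0.11, adjusted p = 0.00176). The gene with the symbol "not" lay closest to Vha55 in pattern over the 9 libraries, followed by Vha68-2, Vha68-1, Vha36-1 and Idua. Their root mean square distances from Vha55 were 0.16, 0.17, 0.19, 0.21 and 0.21 on the log2 scale after centring each gene. Idua encodes a lysosomal enzyme that degrades glycosaminoglycans. Of the 20 nearest among 5514 candidate genes, 5 were V-ATPase genes, namely the members above with Vha26, and Vha16-1, which encodes the V0 proton-carrying ring.

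The rotor subunits split more. Vha36-1 (FBgn0022097, chromosome 2R, 15541435 to 15542498, plus strand), the main gene of the shaft subunit D, stood at 662.6, 571.3 and 634.6 in the larvae, at 955.6, 1066 and 943.6 in prepupae titled mitf, and at 15394, 18887 and 15600 in prepupae titled LacZ. Each group lay apart from the others, with prepupae titled LacZ highest and larvae lowest. Prepupae titled LacZ averaged 16.8 times the prepupae titled mitf (log2 difference 4.07 ± 0.11, adjusted p = 1.01e-09). The rise from larvae to prepupae titled mitf was 1.59-fold (0.67 ± 0.11, adjusted p = 0.000322), the largest rise among the 10 genes in that comparison.

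Vha36-3 (FBgn0040377, chromosome X, 2579091 to 2580560, minus strand), the minor D gene, moved in opposite directions in the prepupa groups. It stood at 13.9, 20.1 and 18.8 in the larvae, at 0, 3.87 and 1.23 in prepupae titled mitf, and at 307.9, 167.3 and 330.4 in prepupae titled LacZ. It was the only member with all prepupae titled mitf below all larvae. Prepupae titled mitf fell by 3.06 ± 0.53 against the larvae (adjusted p = 0.000531) and prepupae titled LacZ rose by 3.81 ± 0.53 (adjusted p = 8.64e-05), so that they differed by 6.87 ± 0.53 (adjusted p = 1.33e-06). With so few reads the size depended on the pseudocount, from 8.32 at 0.1 to 5.33 at 5 for the prepupa groups and from -4.44 to -1.78 for prepupae titled mitf against larvae.

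Per kb, Vha36-3 gave 2.30% ± 0.558 of the level of the measured D genes in the larvae, 0.135% ± 0.151 in prepupae titled mitf and 1.35% ± 0.546 in prepupae titled LacZ. The middle value rests on a few reads, and was 0.0535% without replicate 2 titled mitf and 0.202% without replicate 1. The log2 ratio of Vha36-1 to Vha36-3 differed by 3.72 between prepupae titled mitf and larvae and by -2.80 between prepupae titled LacZ and those titled mitf, without overlap. Exact permutation tests gave p = 0.10 for each, the smallest possible, and adjusted p = 0.12. With pseudocounts of 0.1 and 5 the first difference was 5.10 and 2.45 and the second -4.25 and -1.27. Nearest to Vha36-3 in pattern were MCU, dnk, waw, Best1 and Vha100-2, at distances of 0.67, 0.67, 0.69, 0.72 and 0.73. MCU is the pore of the mitochondrial calcium uniporter, dnk a nucleoside kinase, waw a translation factor of mitochondria, and Best1 a chloride channel. Vha100-2, a form of the large V0 subunit a, was the only V-ATPase gene among its 20 nearest.

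Vha14-1 (FBgn0262512, chromosome 2R, 15679426 to 15680084, minus strand) encodes F, which sits beside D in the shaft. It stood at 426.6, 333.9 and 360.0 in the larvae, at 581.9, 537.3 and 558.4 in prepupae titled mitf, and at 3933, 4636 and 4239 in prepupae titled LacZ. The groups were again ordered larvae, titled mitf, titled LacZ without overlap, but the last step was the smallest of the 9 members with a fold. Prepupae titled LacZ averaged 7.63 times the prepupae titled mitf (log2 difference 2.93 ± 0.11, adjusted p = 8.84e-09). From larvae to prepupae titled mitf the gene rose by 0.59 ± 0.11 (adjusted p = 0.000885).

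**Figure D2:**
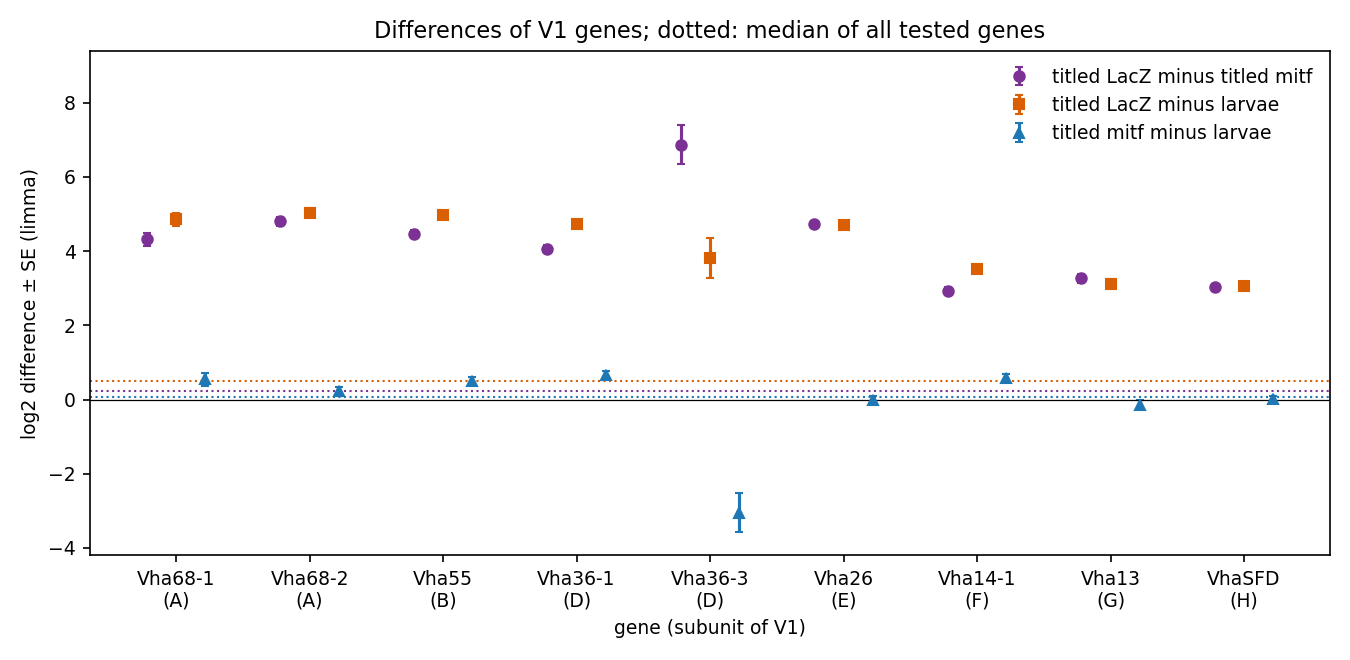
Log2 differences ± SE from limma for 9 V1 genes in the 3 comparisons, with Vha68-3 left out because it was listed at 0 in 2 groups, and dotted lines at the median of all tested genes in each comparison. Differences of prepupae titled LacZ ran from 2.93 for Vha14-1 to 6.87 for Vha36-3 against prepupae titled mitf, while prepupae titled mitf lay within 0.67 of the larvae except for Vha36-3 at -3.06.

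The stalk subunits E and G are bound to each other in the pump, and their genes differed in how far they moved. Vha26 (E, FBgn0283535, chromosome 3R, 5591763 to 5595356, plus strand) stood at 2430, 2372 and 2681 in the larvae, at 2480, 2424 and 2544 in prepupae titled mitf, and at 60203, 70332 and 65818 in prepupae titled LacZ. Larvae and prepupae titled mitf overlapped, and prepupae titled LacZ stood alone. The mean of prepupae titled LacZ was 26.4 times that of prepupae titled mitf (log2 difference 4.72 ± 0.09, adjusted p = 2.58e-10). Prepupae titled mitf and larvae differed by -0.01 ± 0.09 (adjusted p = 0.988), and that sign turned with library totals and without larval replicate 3 or replicate 2 titled mitf.

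Vha13 (G, FBgn0283536, chromosome 3R, 19643018 to 19644386, minus strand) stood at 1596, 1710 and 1780 in the larvae, at 1531, 1448 and 1636 in prepupae titled mitf, and at 12563, 16719 and 15425 in prepupae titled LacZ. As for Vha26, the larvae and the prepupae titled mitf overlapped. Prepupae titled LacZ averaged 9.69 times the prepupae titled mitf (difference of 3.27 ± 0.11 in log2, adjusted p = 5.45e-09) and 8.79 times the larvae. Prepupae titled mitf and larvae differed by -0.14 ± 0.11 (adjusted p = 0.310).

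VhaSFD (FBgn0027779, chromosome 2L, 16722883 to 16727826, minus strand) encodes H, which is needed for the assembled pump to work and, in yeast, holds detached V1 inactive. It stood at 1901, 1759 and 1901 in the larvae, at 1905, 1841 and 1865 in prepupae titled mitf, and at 14424, 15316 and 16582 in prepupae titled LacZ. Larvae and prepupae titled mitf overlapped, and prepupae titled LacZ lay apart. The latter averaged 8.26 times the prepupae titled mitf (log2 difference 3.04 ± 0.08, adjusted p = 1.28e-09). Prepupae titled mitf and larvae differed by 0.01 ± 0.08 (adjusted p = 0.916), with the sign turning under trimmed mean scaling and without larval replicate 2.

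Seen against Vha55, the main genes of A, D and E differed less between the prepupa groups than did those of F, G and H. These ratios to Vha55 were chosen after the values had been seen. Per kb of longest transcript, the level of Vha13 was 161% ± 6.25 of that of Vha55 in the larvae, 103% ± 8.06 in prepupae titled mitf and 45.3% ± 3.96 in prepupae titled LacZ. VhaSFD went from 66.6% ± 3.52 and 47.4% ± 3.89 to 17.8% ± 0.755 in the same order of groups, and Vha14-1 from 51.0% ± 7.88 and 53.7% ± 3.17 to 18.6% ± 0.799. For these 3 genes the prepupae titled LacZ lay below both other groups in every library. Vha36-1 stood at 52.6% ± 4.51, 59.2% ± 9.78 and 45.0% ± 4.18, Vha26 at 76.5% ± 0.954, 53.8% ± 4.55 and 64.4% ± 2.05, and Vha68-2 at 110% ± 2.16, 90.3% ± 3.15 and 116% ± 13.2.

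On the log2 scale, the ratio to Vha55 differed between prepupae titled LacZ and those titled mitf by -1.53 for Vha14-1, -1.41 for VhaSFD and -1.19 for Vha13. The same difference was -0.39 for Vha36-1, -0.14 for Vha68-1, 0.26 for Vha26 and 0.36 for Vha68-2. It was 2.41 for Vha36-3, the largest in size, but that gene was near 0 in prepupae titled mitf. Each of these except Vha68-1 was without overlap between the groups, and the exact two-sided permutation test gave p = 0.10, the smallest that 3 against 3 libraries allow, with adjusted p = 0.133 over 24 comparisons of a ratio to Vha55. For Vha68-1 the exact permutation test gave p = 0.40. Against the larvae, the ratio of VhaSFD to Vha55 in prepupae titled LacZ differed by -1.91, that of Vha13 by -1.84 and that of Vha14-1 by -1.45, again with an exact permutation p of 0.10. Annotated transcripts of a gene differ in length, from 703 to 943 bases for Vha13 and from 2048 to 2722 for Vha55, so the levels per kb depend on which transcript is taken.

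**Figure D3:**
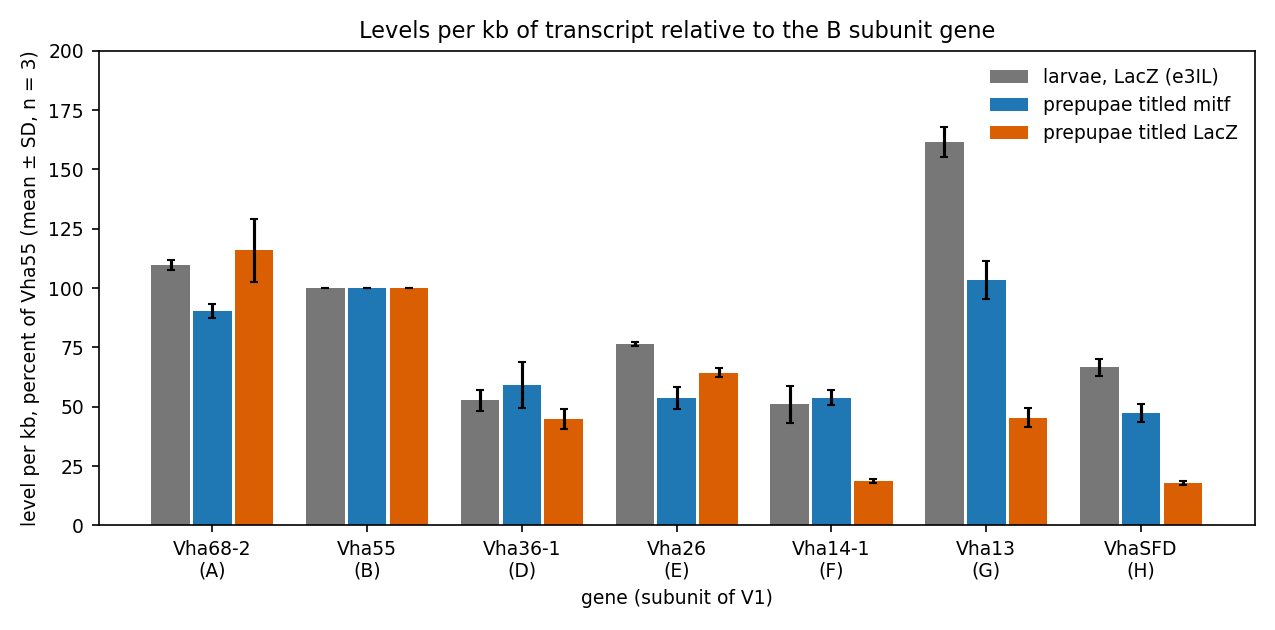
Bars give the level per kb of longest annotated transcript as a percent of that of Vha55 in the same library (mean ± SD, n = 3) for 7 V1 genes in the 3 groups, with Vha55 at 100 by construction. Vha13, Vha14-1 and VhaSFD stood lower in prepupae titled LacZ than in both other groups, at 45.3%, 18.6% and 17.8% of Vha55.

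In order of level per kb, larvae had Vha13 first, at 1798 ± 98.8 per kb, then Vha68-2 and Vha55, whose ranges overlapped, then Vha26, then VhaSFD, then Vha36-1 and Vha14-1, which overlapped, and far below them Vha68-1 and Vha36-3, which also overlapped. In prepupae titled mitf the ranges of Vha13, Vha55 and Vha68-2 ran into each other at the top, from 1632 ± 99.9 to 1429 ± 91.6, Vha36-1 came next, then Vha14-1 and Vha26, which overlapped, and then VhaSFD. Prepupae titled LacZ had Vha68-2 and Vha55 first and overlapping, at 40387 ± 6357 and 34735 ± 2127, then Vha26, then Vha13 and Vha36-1, which overlapped, then Vha14-1 and VhaSFD, which did too, then Vha68-1, Vha36-3 and Vha68-3 in turn. Among 10189 genes with an annotated length, Vha68-2 ranked 878 in the larvae, 769 in prepupae titled mitf and 24 in prepupae titled LacZ by mean level per kb. Vha55 ranked 935, 707 and 29, and VhaSFD 1234, 1221 and 259.

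Replicates of the abundant members were close. Coefficients of variation of the 7 main genes were 4.33% to 12.8% in the larvae, 1.71% to 9.62% in prepupae titled mitf and 6.12% to 15.7% in prepupae titled LacZ. In prepupae titled LacZ they were 32.9% for Vha36-3 and 35.7% for Vha68-3, but 8.95% for Vha68-1, the remaining minor gene.

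Genes of the membrane sector, listed as the other part of the pump, were measured for 13 of 21 names. Between the prepupa groups 11 of the 13 were higher in prepupae titled LacZ and 2 lower, with a median log2 difference of 3.40 beside 4.39 for V1, and the ranges of the sectors overlapped. Beside these 11, 41.1% of all tested genes were higher. Vha100-4, Vha100-5, Vha16-5 and VhaAC39-2 passed the filter on low values only with the prepupae titled LacZ, so their rise in that group had to follow. From larvae to prepupae titled LacZ 12 rose and 1 fell (median 4.17), where 46.3% of all tested genes rose. From larvae to prepupae titled mitf 9 rose, 1 fell and 3 were not called (median 0.56, against 0.12 for V1), where 34.8% of all tested genes rose. The lower genes between the prepupae were VhaM9.7-c (-2.29 ± 0.15), a form of the small subunit e, and Vha100-1 (-1.29 ± 0.15), a form of subunit a. The rises ranked largest at a pseudocount of 1 were of forms of subunit a that were near 0 in prepupae titled mitf. Vha100-4 was listed at 0 there and stood at 94.2, 273.0 and 136.7 in prepupae titled LacZ, and Vha100-5 stood at 0.915, 0 and 0 against 124.9, 117.6 and 138.3. Vha100-2, also a form of subunit a and well above 0 in all libraries, differed by 6.20 ± 0.15. Against the larvae the same ranking put Vha100-4, at 2.77, 0 and 0 in the larvae, and Vha16-5, listed at 0 there, first in prepupae titled LacZ, and VhaM9.7-c fell (-1.22 ± 0.15). In prepupae titled mitf Vha100-1 rose most against the larvae (1.71 ± 0.15), followed by VhaAC39-2, which was near 0 in both groups, at 3.65, 0 and 3.65 against 0 in every larval library, overlapping (adjusted p = 0.0454). VhaM9.7-c rose by 1.07 ± 0.15 without overlap, and Vha100-2 fell (-2.24 ± 0.15). Rbcn-3A and Rbcn-3B, whose products help V1 and V0 assemble, differed between the prepupa groups by -0.16 ± 0.07 (adjusted p = 0.0768) and 0.37 ± 0.18 (adjusted p = 0.0806), and rose from larvae to prepupae titled mitf by 1.01 ± 0.07 and 1.08 ± 0.18. Both also rose from larvae to prepupae titled LacZ, by 0.86 ± 0.07 and 1.45 ± 0.18.

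**Figure D4:**
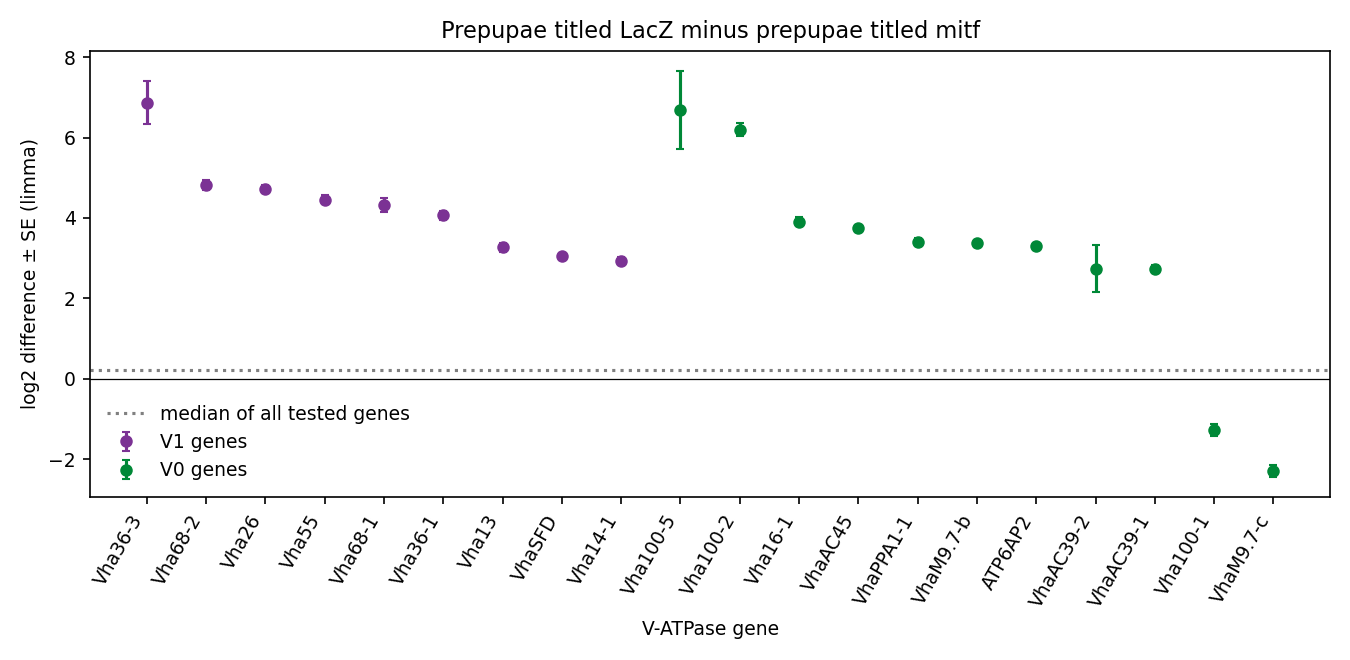
Log2 difference ± SE (limma) of prepupae titled LacZ minus prepupae titled mitf for 9 V1 and 11 V0 genes above 0 in a library titled mitf, sorted within each sector, with a dotted line at the median of all tested genes, 0.22. All V1 genes drawn lay between 2.93 and 6.87, and the V0 genes between -2.29 and 6.68.

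Markers of the Malpighian tubule and gut, which are rich in V-ATPase, were counted beside V1. Of 16 tubule markers 13 were measured, and between the prepupa groups 9 were called higher in prepupae titled LacZ, 0 lower and 4 not called, where 41.1% of all tested genes were higher. The summed level of the 13 ran from 3649 to 4270 in the larvae, from 1427 to 1578 in prepupae titled mitf and from 39244 to 42899 in prepupae titled LacZ. The potassium channel gene Irk3 made up most of the last sum, at 24475, 20732 and 25880. Most of the larval sum was Alp4, at 2191, 2762 and 2571, with means of 19.1 under the title mitf and 1287 under the title LacZ. Measured against larvae, Alp4 was lower with the title LacZ (-0.98 ± 0.26 from limma, adjusted p = 0.00576). In that comparison 7 of the 13 markers were called higher, 1 lower and 5 not called. The rates over the 10139 tested genes were 46.3% up and 32.2% down. Mean levels in prepupae titled mitf and titled LacZ were 4.30 and 1925 for SecCl, 52.8 and 4807 for Best1, and 1009 and 8686 for ClC-a, all chloride channel genes. The receptor genes CapaR and Lkr were also called higher at low levels. Lkr stood at 3.99, 9.72 and 5.23 in prepupae titled LacZ (adjusted p = 0.00174 from limma). CapaR stood at 10.4, 10.6 and 5.23 there, at 0 in all prepupae titled mitf, and at 0, 0 and 24.9 in the larvae. CapaR passed the filter on low values only with the prepupae titled LacZ, so its call had to follow and no p is given. The transcription factor gene ct was not called and lay lower in prepupae titled LacZ without overlap (adjusted p = 0.0975). Of 10 gut markers 8 were measured, 7 of which were called higher and 1 not called. Their sums were 9.04 to 15.4 in prepupae titled mitf and 455.7 to 929.1 in prepupae titled LacZ. The genes alphaTry, betaTry and epsilonTry passed the filter on low values only with the prepupae titled LacZ, so no weight is placed on their calls. For alphaTry the prepupa groups overlapped, at 1.83, 0 and 1.22 with the title mitf and 17.5, 1.77 and 11.2 with the title LacZ. The part of these tissues in the V1 differences was not tested.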

How the data were processed

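Per the submitters' processing notes, Salmon 1.5.2, DESeq2 and bcl2fastq were used with the genome build BDGP6. How transcripts were summed to genes is not given in the sources used here. The deposited values, 1 per gene and library, were a normalised signal, not counts. In each library, the median of gene values divided by that gene's geometric mean was 0.9926 (7791 genes above 0 throughout). Of low values, 69.2% to 77.1% were whole multiples, up to 10 and within 0.05, of a unit per library, so whole reads were not recovered. That unit was the commonest low value of a library, held by only 3 to 9 genes. Dividing library sums by it gives about 18500000 to 29100000 reads per library, a rough estimate.

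Genes with at least 1 in at least 3 libraries entered limma 3.58.1 (R 4.3.3) as log2(value + 1). The fit used all 9 libraries, 1 coefficient per group and a trend of variance with level. Tests were two-sided, and the fit was tested on simulated data. Symbols, positions and lengths came from Ensembl release 115 (BDGP6) for 10189 of 10242 identifiers. Ratios of paralogues were compared with exact permutation tests (scipy 1.17.1). Like patterns were sought among genes with a mean of at least 10 and a symbol other than a CG or CR number, and the 5 nearest were named for Vha55 and Vha36-3. Of other V-ATPase genes, each comparison names up to 2 called genes that rose most and up to 2 that fell most. Markers of hemocytes, testis, muscle, salivary gland and neurons were counted as well. A planned search for promoter motifs was not run, as no genome sequence was used here.

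The members and lists were chosen with earlier results of these data known, which already showed V-ATPase genes high in prepupae titled LacZ. The alternatives tried were other pseudocounts, filters and scalings, only the groups compared, a replicate block and leaving out each library.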

Additional observations from a re-analysis of the deposited data

Results flagged for a closer look

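For 3 V-ATPase genes, 1 of them a V1 gene, the change from larvae went in opposite directions in the prepupa groups in every library, and the difference between the prepupa groups was called by limma. Vha36-3, the minor D gene, stood at 3.81 in prepupae titled LacZ and at -3.06 in prepupae titled mitf relative to the larvae on the log2 scale, a difference of 6.87 (adjusted p = 1.33e-06). Vha100-2, a form of V0 subunit a, stood at 3.96 and -2.24, a difference of 6.20 (adjusted p = 6.75e-10). For VhaM9.7-c, a form of V0 subunit e, the signs were swapped, -1.22 and 1.07, a difference of -2.29 (adjusted p = 4.16e-07). Both changes are measured from the same larvae, so the difference is that between the prepupa groups themselves. That difference being called was part of the rule that picked these genes, so the p-values are no separate test of them. Changes from larvae without overlap were common among all tested genes. With the title LacZ, 47.0% went up and 33.0% down, and with the title mitf 37.2% and 33.9%. The share of all tested genes meeting the full rule was not counted.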

How the results depend on the processing

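Of 10 V1 genes, those called kept their direction and call between prepupae titled LacZ and either other group under every alternative in which they were tested. Vha68-3 failed the filter without any 1 library titled LacZ. The counts for prepupae titled mitf against larvae stayed within 1.5 times of 4 higher and 1 lower. In that comparison, values near 0 changed sign. Vha26 turned to 0.0518 with library totals, and ranged from -0.0403 to 0.048 when 1 library was left out. VhaSFD turned to -0.0623 with trimmed mean scaling, and ranged from -0.0238 to 0.0321 with 1 library left out. The cause was not tested. For the ratios of paralogues, alternatives were chosen after seeing the data. The log2 ratio of Vha68-1 to Vha68-2, prepupae titled LacZ against larvae, was -0.18 and ranged from -0.3218 to 0.0177 with 1 library left out, turning without replicate 2 titled LacZ. Ratios to Vha68-3, listed at 0 in larvae and in prepupae titled mitf, rest on the pseudocount. At 5, those of Vha68-1 against larvae turned to 0.21, and those of Vha68-2 to 0.30 against prepupae titled mitf and 0.53 against larvae. Same-numbered libraries of different groups showed no common deviation across genes (r from -0.0653 to 0.0888). For differently numbered ones r ran from -0.1317 to 0.1024. No pairing by number was thus seen, and whether libraries shared a batch was not tested. With the replicate block, 10, 10 and 4 V1 genes were higher and 0, 0 and 1 lower in the 3 comparisons. Depth limits Vha68-3 and Vha36-3, which stood at few reads outside prepupae titled LacZ.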

Other observations

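Within the prepupae titled LacZ, replicate 2 had the highest Mitf value (68535, against 35204 and 45647) and the highest value for 7 of the 10 V1 genes, namely Vha68-2, Vha68-3, Vha55, Vha36-1, Vha26, Vha14-1 and Vha13. It was the highest of the 3 for 42.0% of the 10105 genes above 0 in that group. Vha68-1, Vha36-3 and VhaSFD were highest in replicate 3. With 3 libraries no relation to Mitf was tested.

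Among the 20 genes nearest in pattern over the 9 libraries, Vha68-1 had 6 from the V-ATPase lists and Vha36-1 had 4. Vha68-2, Vha26, Vha14-1 and VhaSFD had 2 each, Vha13 had 1 and Vha68-3 had 0. How many V-ATPase genes were among the 5514 candidates was not counted. The 2 V-ATPase genes nearest to Vha14-1 were the V0 genes ATP6AP2 and VhaAC39-1, those nearest to VhaSFD were Vha13 and VhaAC39-1, and the 1 nearest to Vha13 was VhaSFD. These are descriptions over groups that the genes share.

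Markers of other tissues were counted in the same way between the prepupa groups. Among all tested genes 41.1% were called higher in prepupae titled LacZ and 31.6% lower. There, 1 of 9 measured hemocyte markers was higher and 3 lower, and 1 of 4 testis and gonad markers higher and 1 lower. Of 10 muscle markers 6 were higher and 0 lower, and of 6 neuron markers 3 were higher and 2 lower. Summed neuron markers ran from 19417 to 20745 with the title mitf and from 2024 to 3214 with the title LacZ. Hemocyte sums were 8059 to 9359 and 6801 to 7876 in the same order, and testis and gonad sums 364.3 to 405.8 and 165.7 to 211.3. Muscle sums went the other way, from 852 to 1107 and from 5980 to 7294. Of 10 salivary gland markers 0 were matched. The higher muscle gene Act88F was listed at 0 in all larvae and all prepupae titled mitf, so its call had to follow. The higher testis gene ocn was listed at 0 in all prepupae titled mitf. Of the 10 fat body markers 1, FASN1, was higher and 7 were lower.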
